A study of Mus musculus with 2 samples.

Results

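The coding exon sequence of mouse genes was examined for Mbnl2 binding in quadriceps muscle. Its members were the coding (CDS) bases of protein-coding transcripts in the GENCODE vM1 annotation of mm9, merged per gene and strand and cut wherever the class of exon changed. This gave 218209 coding blocks with 35725728 bases in 22372 genes, out of 500254 annotated segments (coding blocks, untranslated pieces, introns and other exonic pieces) of these genes. A tag, which is a short RNA fragment recovered with the protein, was counted when its midpoint lay in a block on the strand of the gene. Of 188766 WT tags and 392681 Mbnl1 KO tags kept, 5366 and 20186 were coding.

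The tags came from HITS-CLIP, in which ultraviolet light ties proteins to bound RNA before immunopurification and sequencing. Mbnl2 was purified with the monoclonal antibody 3B4 from the quadriceps of 3 WT and 3 Mbnl1-/- (Mbnl1 KO) mice of 15 to 16 weeks, for which the labels give the strain C57BL/6. For the heterozygotes crossed to make its compound knockouts, the study's text gives a mixed background rather than C57BL/6 alone. The knockout is a whole-body allele named for exon 3 of Mbnl1. RNase A was used at 38.6 and 0.0386 U/ml (high and low), and the tables do not tell which concentration a tag came from. Each table merges the 3 mice of a genotype, so the spread between mice is unknown, no test between genotypes was made, and each 95% interval below covers counting error only and compares 2 tables of tags.

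Mbnl proteins are zinc finger proteins that bind pyrimidine-GC-pyrimidine (YGCY) sites in RNA and control which exons are spliced into a message, mostly through sites in the introns around an exon or in the exon itself. They also bind 3'UTRs, where they act on RNA localisation and stability. In muscle they drive the change from fetal to adult isoforms of contractile and calcium-handling proteins. A coding exon was called constitutive here when it was exonic, coding or untranslated, in every coding transcript of its gene. Genes with 1 coding transcript meet this by default. Of the 15201 constitutive tags in both tables, 7894 lay in genes with at least 2 coding transcripts. An exon was called skipped when at least 1 coding transcript ran across it without using it. Another class had to be kept apart, since many exons lie beyond the start or end of another coding transcript of the same gene, which therefore neither includes nor skips them. They are called beyond-end exons.

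The WT table held 5176203 reads in 343554 tags and the Mbnl1 KO table held 50329234 reads in 476543 tags. Tags with a reference sequence of at least 70% one base were left out of both, which removed 148588 WT tags and 80234 Mbnl1 KO tags on assembled chromosomes, but only 0.353% and 0.153% of the tags in coding sequence. Ratios are Mbnl1 KO over WT after division by the tags kept, which multiplies the raw ratio by 0.481. The tissue label was checked by the coding tags of marker genes. All 10 skeletal muscle markers had coding tags, 606 in WT and 1985 in Mbnl1 KO, and the 5 fibroblast markers had 117 and 626. The 4 endothelial markers had 3 and 20, the 2 satellite cell markers had none and the adipocyte, immune, Schwann cell and red blood cell lists had at most 12 each in both tables together. The targeted gene, Mbnl1, had 1 WT and 6 Mbnl1 KO coding tags, too few to check the knockout.

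The sequences below show what the tags touched. They are stretches of at most 60 nt around the position of highest tag cover in selected coding exons, read 5′ to 3′ on the RNA strand from mm9, with each YGCY motif (TGCT and TGCC, or CGCT and CGCC, with overlaps included and on the RNA strand only) in capitals. The first 5 come from skipped exons of Naca (the exon of the muscle isoform skNAC), Ldb3 (a Z-disc protein), Tnnt3 (fast skeletal troponin T), Col1a1 (a chain of type I collagen) and Dot1l (a histone methyltransferase). The next is from a constitutive exon of Cmya5, a large muscle protein, and the last 2, from constitutive exons of the creatine kinase Ckm and the actin-severing protein Gsn, hold many tags but no motif. Of all 60-nt windows in coding blocks, 58.6% held the motif, with a mean of 0.981 per window.
Naca exon 3 of 9, chr10:127478039-127478098, plus strand: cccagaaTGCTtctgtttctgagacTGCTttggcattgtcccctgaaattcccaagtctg
Ldb3 exon 8 of 14, chr14:35368629-35368688, minus strand: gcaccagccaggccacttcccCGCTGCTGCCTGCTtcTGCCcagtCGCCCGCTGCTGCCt
Tnnt3 exon 9 of 18, chr7:149693655-149693693, plus strand: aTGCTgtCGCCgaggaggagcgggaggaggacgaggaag
Col1a1 exon 38 of 51, chr11:94808748-94808798, plus strand: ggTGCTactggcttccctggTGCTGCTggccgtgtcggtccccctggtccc
Dot1l exon 30 of 30, chr10:80255136-80255195, plus strand: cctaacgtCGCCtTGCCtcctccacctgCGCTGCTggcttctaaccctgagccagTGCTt
Cmya5 exon 2 of 13, chr13:93866860-93866919, minus strand: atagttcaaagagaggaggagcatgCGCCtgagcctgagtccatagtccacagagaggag
Ckm exon 2 of 8, chr7:19999503-19999562, plus strand: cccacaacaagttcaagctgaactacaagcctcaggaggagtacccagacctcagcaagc
Gsn exon 2 of 17, chr2:35139560-35139619, plus strand: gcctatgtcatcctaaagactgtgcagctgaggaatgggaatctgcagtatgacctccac

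Exon numbers here and below count all exons, untranslated ones included, of the longest coding transcript from 1 at its 5′ end. The Ldb3 stretch held 9 motifs, many of them overlapping, and 3 WT and 12 Mbnl1 KO tags lay on it. The Naca stretch held 2 motifs and carried 7 WT and 26 Mbnl1 KO tags. The Tnnt3 exon is only 39 nt long and its 2 motifs lie at its 5′ end. Motifs were not needed for a high tag number: the Ckm stretch had 4 WT and 17 Mbnl1 KO tags and the Gsn stretch 5 and 22.

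Coding sequence as a whole took a larger share of the tags in Mbnl1 KO muscle. Its share was 2.84% in WT (2.77 to 2.92, exact Clopper-Pearson) and 5.14% in Mbnl1 KO (5.07 to 5.21), a ratio of 1.81 (1.75 to 1.86). Per kb of sequence this was 0.796 WT and 1.44 Mbnl1 KO tags per 1000000 kept tags. The level lay between those of introns (0.249 and 0.272) and 3'UTRs (2.75 and 5.60). The ratio of 3'UTR tags was 2.03, higher than that of coding tags by a factor of 1.13 (1.09 to 1.17), and that of intron tags was 1.09, lower by a factor of 0.603 (0.583 to 0.622). The 5'UTR ratio was 1.26 (1.14 to 1.38).

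Tags on the opposite strand of coding sequence gave a ratio of 0.858 (0.796 to 0.925), which is below 1. Of the tags with a midpoint over coding sequence on either strand, 83.3% were sense in WT and 91.3% in Mbnl1 KO. Several properties of the coding tags differed between the tables beside their number. Their median length was 22 nt in WT and 26 nt in Mbnl1 KO, and 47.6% and 36.6% of them rested on 1 read. The coding ratio was 1.42 with tags of at least 2 reads, 1.61 with tags at an identical position counted as 1, and 2.61 when the Mbnl1 KO reads were thinned to the WT read total, so its size moved with the treatment of reads while it stayed above 1.

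**Figure D1:**
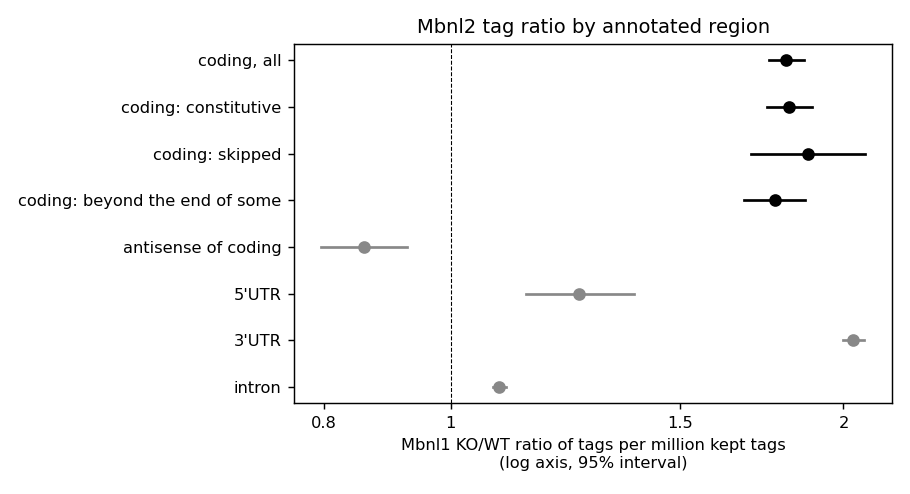
Ratio of Mbnl1 KO to WT tags per 1000000 kept tags (log axis) in coding sequence and its 3 classes (black) and in other regions of the same genes (grey), with 95% counting intervals. The 3 coding classes overlap one another between 1.77 and 1.88, below 3'UTRs at 2.03 and above introns at 1.09.

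Constitutive and skipped coding exons showed nearly the same ratio. Constitutive blocks (132839) held 3179 tags in WT and 12022 in Mbnl1 KO, a ratio of 1.82 (1.75 to 1.89). Skipped blocks (25737) held 486 and 1898, a ratio of 1.88 (1.70 to 2.08). Skipped over constitutive, the ratio of these ratios was 1.03 (0.927 to 1.15), so a skipped ratio above 1.15 times or below 0.927 times the constitutive one lies outside the counting interval. Beyond-end blocks (59633) held 1701 and 6266 tags, a ratio of 1.77 (1.68 to 1.87).

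Skipped exons made up 9.06% of the coding tags in WT (8.30 to 9.86) and 9.40% in Mbnl1 KO (9.0 to 9.81), and 7.70% of the coding bases. These shares depend on the annotation. They were 7.80% and 8.25% when transcripts with incomplete ends were left out, and 40.8% and 40.4% when every exon that is not constitutive was called skipped. Within the 8252 genes that have both classes, skipped sequence held 0.787 tags per kb over both tables and constitutive sequence 0.694, a ratio of 1.13 (1.07 to 1.20). This excess rested on 1 exon: without Naca (left out once the values were known) the ratio was 0.983 (0.927 to 1.04). Gene by gene, of 116 such genes with at least 10 tags in the 2 classes, skipped sequence was denser in 32 (27.6%) and had no tag in 62.

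That exon, the skipped coding exon of Naca at chr10:127476227-127482142 on the plus strand, held more tags than any other coding block. It is 5916 nt long, which is 1972 whole codons, and encodes the muscle-specific part of skNAC, a form of the nascent-chain binding protein alpha-NAC that is needed for sarcomere assembly. It carried 35 tags in WT and 186 in Mbnl1 KO, or 185 WT and 474 Mbnl1 KO tags per 1000000 kept tags, a ratio of 2.55 (1.77 to 3.78). It held 9.27% of all skipped tags. The 645 constitutive coding bases of Naca had no tag in either table. With 3 tags taken as the upper limit, this allows up to 4.65 tags per kb, against 37.4 in the skipped exon. How the aligner placed reads with several matches is not given, so this lack of tags is uncertain. Relative to the other skipped tags, the ratio of the Naca exon was 1.40 times as high, with an interval (0.955 to 2.10) that includes 1.

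Tags were not spread evenly along this exon. In windows of 500 nt, those from 1 to 500, 1501 to 2000 and 5001 to 5500 nt held 39, 40 and 47 tags of both tables, while the 4 windows from 3001 to 5000 nt held between 3 and 7. Of the tags in the exon, 61.1% held a YGCY motif, against 30.1% of windows of the same lengths placed anywhere in it. The scaled ratio was below 1 in 3 of the 12 windows, those from 3001 to 3500 nt (1 and 2 tags), 3501 to 4000 nt (4 and 3) and 4001 to 4500 nt (2 and 4), all at few tags.

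**Figure D2:**
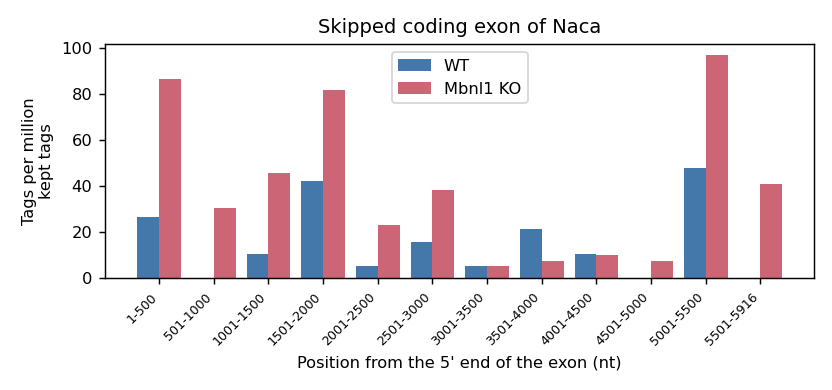
WT and Mbnl1 KO tags per 1000000 kept tags in windows along the skipped coding exon of Naca, by distance from its 5′ end in nt (the last window is shorter). Mbnl1 KO bars are highest in the windows with 39, 40 and 47 pooled tags near both ends and at 1501 to 2000 nt.

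The other skipped exons with the most tags were spread over muscle, matrix and regulatory genes. The least tagged of the 10 had 18 tags in both tables together. Ahnak, a giant scaffold protein, held 10 tags in WT and 68 in Mbnl1 KO in its exon of 16623 nt (chr19:9076189-9092811, plus strand), a ratio of 3.27 (1.67 to 7.12). Rere, a transcriptional co-repressor of the atrophin family, had 8 and 53 in exon 18 of 23 (chr4:149988586-149989940, plus strand), a ratio of 3.18 (1.5 to 7.76). For these 2 exons and Naca the interval stayed above 1.

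The remaining 7 of the 10 had intervals that included 1. Prg4, the joint lubricant lubricin, had 10 WT and 27 Mbnl1 KO tags, and only 5.41% of these held the motif. Its exon is a long run of repeats, so reads may be placed in more than 1 way. Exons 38 and 36 of Col1a1 had 7 and 21, and 6 and 13 tags, and every one of these tags held the motif, against 66.8% and 62.8% of windows of the same exons. Tpm1, an alpha-tropomyosin gene, had 6 and 22 tags in a block of 89 nt at chr9:66875886-66875974 on the minus strand. Ldb3 exon 8 had 5 and 16, Dot1l exon 30 had 5 and 14, and exon 16 of Nisch, which encodes nischarin, had 5 and 13. All 21 Ldb3 tags held the motif, as did 83.9% of the windows in that exon.

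Of the constitutive exons, several mitochondrial ones were among the most tagged, and those are described below with the mitochondrial genes. Outside chromosome M, exon 2 of Cmya5 (chr13:93859075-93868384, minus strand, 9310 nt) had the most tags, 28 in WT and 91 in Mbnl1 KO, a ratio of 1.56 (1.01 to 2.48), and 75.6% of them held a motif against 24.7% of its windows. All 19 tags on its printed stretch came from the Mbnl1 KO table. Exon 2 of Col1a1 had 10 and 61 tags, a ratio of 2.93 (1.49 to 6.42). Exon 10 of Cilp, an extracellular matrix gene, had 4 and 37, a ratio of 4.45 (1.60 to 17.2). Exon 2 of Ckm had 7 and 36, a ratio of 2.47 (1.09 to 6.58), and exon 15 of Myh4, the fast myosin heavy chain IIb, had 5 and 30, a ratio of 2.88 (1.11 to 9.52).

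The intervals of the other 5 of these 10 constitutive exons included 1. Exons 3 and 5 of Acta1, the skeletal actin gene, had 14 and 42, and 11 and 31 tags. AI607873 had 17 and 34, Myot, a Z-disc protein, 12 and 29, and Gsn 7 and 27. Myh and actin genes are families with near-identical stretches, and how the aligner placed reads that match several members is not given in the sources used here, so tags of single members are uncertain.

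Across all coding blocks with at least 10 tags in both tables together, 121 of 270 (44.8%) were at least 2-fold higher in Mbnl1 KO. These 121 include 26 blocks with no WT tag, which reached the minimum through the Mbnl1 KO table alone. The same 2-fold threshold, counted in the same way, was passed by 39.9% of all 4449 annotated segments of coding genes with as many tags. Coding blocks therefore sat between 3'UTR pieces (57.0%) and introns (28.1%). At most 0.5-fold was reached by 13 coding blocks (4.81%), against 7.53% of all segments. The median ratio was 1.92 for coding blocks and 1.70 for all segments. By class, 71 of 146 constitutive, 10 of 25 skipped and 40 of 99 beyond-end blocks were at least 2-fold higher. The count was 53 of 168 blocks (31.5%) when tags at an identical position were counted as 1, 39 of 135 (28.9%) with tags of at least 2 reads, and 90 of 127 (70.9%) when the Mbnl1 KO reads were thinned to the WT total.

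**Figure D3:**
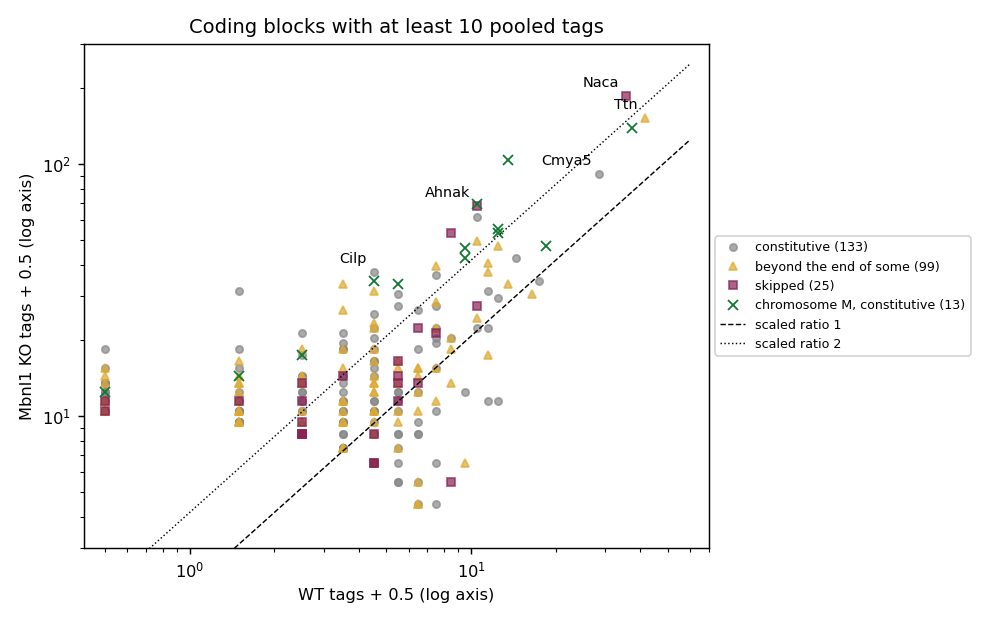
Mbnl1 KO against WT tags (each plus 0.5, log axes) for the 270 coding blocks with at least 10 pooled tags, by class, with lines for scaled ratios of 1 and 2. The Naca exon has the most tags, 26 blocks at the left edge have no WT tag, and 224 of 270 blocks lie above a ratio of 1.

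For 26 blocks no WT tag was found, so they passed the minimum of 10 tags through the Mbnl1 KO table alone and their ratio has no upper bound. The most tagged of these were exon 7 of Cilp with 18 Mbnl1 KO tags, and exon 26 of Myh4 and exon 11 of Srrm2, a large splicing factor of nuclear speckles, with 15 each. The lowest were exon 13 of Htt with 7 WT and 4 Mbnl1 KO tags (0.275, interval 0.0590 to 1.08), exon 7 of Tpm1 with 8 and 5 (0.300, 0.0773 to 1.04) and exon 15 of Tnnt3 with 9 and 6 (0.320, 0.0939 to 1.01). All 3 of the lowest had intervals that included 1.

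Most coding blocks were too sparsely tagged to be compared one by one. A tag was found in 10063 blocks (4.61%) of 5730 genes, and 50.4% of these blocks had a single tag. The 270 blocks with at least 10 held 23.1% of the coding tags and the top 10 held 4.64%. Blocks with a tag in both tables numbered 1969, of which 172 were skipped exons.

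The splicing targets named by the study were tagged more often than other genes in their skipped exons, though few exons had enough tags to compare the tables. These 18 genes have 258 skipped coding blocks, of which 87 (33.7%) had a tag and 32 had at least 3. Over all 25737 skipped blocks, 845 (3.28%) had a tag. Outside Ttn, 15 of 99 blocks (15.2%) had one. The list was chosen by the study in this muscle, and its blocks were not matched for RNA level, so these shares are a description. Together the skipped blocks held 70 tags in WT and 181 in Mbnl1 KO, a ratio of 1.24 (0.938 to 1.66). Most of these tags lay in Ttn, which encodes the giant sarcomeric protein titin. Its 22 annotated coding transcripts share no coding base, so Ttn has no constitutive block. Its 159 skipped blocks held 55 and 144 tags, a ratio of 1.26 (0.916 to 1.75), and its 190 beyond-end blocks 204 and 599, a ratio of 1.41 (1.20 to 1.66). The first divided by the second was 0.892 (0.622 to 1.29).

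Within Ttn, exon 48 of 347 (chr2:76741120-76741683, minus strand) had no WT tag and 11 in Mbnl1 KO, so it reached the tag minimum through the Mbnl1 KO table alone. The other skipped Ttn exons with at least 3 tags had between 3 and 9 each. Outside Ttn, skipped exons of the study's targets held 15 WT and 37 Mbnl1 KO tags in 7 genes. Ldb3 exon 8 (5 and 16) was the most tagged of them. Tnnt3 exon 9 had 2 and 8, Tnnt3 exon 17 had 0 and 3, and exon 14 of Cacna1s, the voltage sensor of the muscle calcium channel, had 1 and 3. No coding tag fell in Clcn1, the muscle chloride channel, in Ank1 or in Tlk2, in either table.

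Grouped by function, coding tags of the contractile lists had ratios between 1.5 and 1.70. The Z-disc and titin list (20 genes) had 341 coding tags in WT and 1123 in Mbnl1 KO, a ratio of 1.58 (1.40 to 1.79), and of its 13 genes with at least 10 tags, 6 were at least 2-fold higher and none 2-fold lower. Ttn had 259 and 743 (1.38, 1.20 to 1.59), Ldb3 12 and 68 (2.72, 1.46 to 5.53), Myot 16 and 44 (1.32, 0.731 to 2.51) and the LIM protein Fhl1 4 and 48 (5.77, 2.11 to 22.0). As background, 228 of all 401 genes with at least 10 coding tags (56.9%) were at least 2-fold higher, 9 (2.24%) were 2-fold lower and the median ratio was 2.24.

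The thick filament and M-band list (14 genes) had 264 and 932 coding tags, a ratio of 1.70 (1.48 to 1.95). Myosin heavy chains Myh4 (108 and 352), Myh1 (53 and 218) and Myh2 (35 and 163) all had intervals above 1. The thin filament list (15 genes) had 170 and 530 tags, a ratio of 1.5 (1.26 to 1.79). Of its 4 most tagged genes, the interval lay above 1 for nebulin, Neb, with 36 and 146 (1.95, 1.35 to 2.89). It included 1 for Acta1 (56 and 147), Tpm1 (31 and 83) and Tnnt3 (26 and 63).

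Genes of excitation-contraction coupling and the calcium store (17 genes) had 97 and 306 coding tags, a ratio of 1.52 (1.20 to 1.93). The calcium pump Atp2a1 supplied 61 and 189 of these, and the calcium buffer Pvalb (13 and 31) and the release channel Ryr1 (11 and 30) had intervals that included 1. Glycolytic and energy-buffering genes (15 annotated) had the lowest ratio of the lists, 1.30 (1.04 to 1.63), from 108 and 291 tags, and the median over their 9 genes with at least 10 tags was 1.00. There Ckm had 19 and 85 tags and the aldolase Aldoa 25 and 52. The splicing regulator list (28 genes) had only 14 and 53 coding tags, and Mbnl2 itself had 2 and 8. Genes of surface membrane excitability (11 genes) had 13 and 38.

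The highest ratios among these lists were those of mitochondrially encoded genes. All 13 had coding tags, 132 in WT and 664 in Mbnl1 KO, a ratio of 2.42 (2.0 to 2.94), which was 1.35 times (1.11 to 1.64) that of the other coding tags. As coding blocks, 11 of 13 were at least 2-fold higher and all 13 had a ratio above 1, against 121 and 224 of all 270 coding blocks. 1 of the 11, mt-Nd6 with 0 and 12 tags, reached the minimum of 10 tags through the Mbnl1 KO table alone. The cytochrome oxidase genes mt-Co1 and mt-Co2 had 37 and 139, and 13 and 103 tags, mt-Cytb had 10 and 69, and mt-Nd5 12 and 55. Without chromosome M the coding ratio was 1.79 (1.74 to 1.85).

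Coding tags of the fibroblast marker list moved with genotype more than those of the muscle markers. The 5 fibroblast genes had 117 tags in WT and 626 in Mbnl1 KO, a ratio of 2.57 (2.11 to 3.16), which was 1.63 times (1.31 to 2.05) that of the muscle list at 1.57. Col1a1 supplied most of these tags, 72 and 305, with the lowest ratio of the list's genes with at least 10 tags (2.04, 1.57 to 2.67). Col3a1, a fibrillar collagen chain, had 4 and 90 tags, a ratio of 10.8 (4.08 to 40.6), Col1a2 had 33 and 173 (2.52, 1.73 to 3.78) and Dcn, the proteoglycan decorin, 8 and 50 (3.00, 1.41 to 7.34). Pdgfra had 0 and 8. Fibroblast number, RNA level per cell and binding cannot be told apart in these tables. Leaving out collagen genes and the fibroblast list changed the coding ratio from 1.81 to 1.78 (1.73 to 1.84).

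Tags were scarce at exon edges: in the first 10 nt after the 3′ splice site the density was 0.282 WT and 0.413 Mbnl1 KO tags per 1000000 kept tags per kb, and 20 to 29 nt in it was 0.902 and 1.78. BWA, the authors' aligner, does not align reads across splice junctions, and the part of this in the scarcity was not tested. In the last 10 nt before the 5′ splice site the density was 0.329 in both tables, a ratio of 1.00 (0.782 to 1.29), whereas from 10 to 19 nt it was 1.94 (1.68 to 2.25). These intervals do not overlap, but coding tags were longer in Mbnl1 KO (median 26 nt, against 22 nt in WT). The part of tag length in these edge ratios was not tested. At the other edge the ratio was 1.47 (1.14 to 1.90) in the first 10 nt and 1.49 (1.30 to 1.71) from 10 to 19 nt, which did not differ beyond counting error, and 1.97 (1.72 to 2.26) from 20 to 29 nt.

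**Figure D4:**
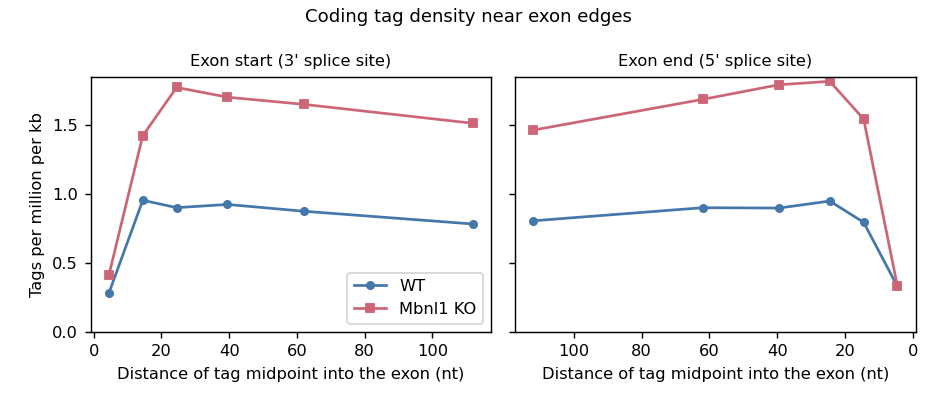
Density of coding tags (tags per 1000000 kept tags per kb) by distance of the tag midpoint into the exon from its start (left) and its end (right), for internal exon edges. Both tables drop within 10 nt of an edge, and WT and Mbnl1 KO meet at 0.329 just before the 5′ splice site.

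A small part of the coding tags reached into an intron, 4.60% in WT (4.06 to 5.20) and 4.43% in Mbnl1 KO (4.15 to 4.72). In skipped exons it was 6.79% (4.72 to 9.40) and 5.48% (4.50 to 6.60). The ratio of such tags was 1.51 in skipped exons (1.02 to 2.31) and 1.87 in constitutive exons (1.54 to 2.27). Along the message, 20.03% of tags in WT (18.9 to 21.2) and 18.3% in Mbnl1 KO (17.8 to 18.9) lay in the first 20% of the coding sequence, and 23.9% and 23.5% in the last 20%. First coding exons had a ratio of 1.61 (1.45 to 1.79), internal ones 1.81 (1.74 to 1.88), last ones 1.87 (1.72 to 2.04) and sole coding exons 1.95 (1.74 to 2.20). Without the 13 genes of chromosome M, all of which have a sole coding exon, the ratio of sole coding exons was 1.68 (1.44 to 1.96). Internal coding exons had 0.769 tags per kb over both tables, first coding exons 0.575, last ones 0.703 and the only coding exon of a transcript 0.499, or 0.279 outside chromosome M.

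Coding tags carried the YGCY motif more often than the sequence around them. It was found in 48.2% (46.8 to 49.5) of tags in WT and 50.6% (50 to 51.3) in Mbnl1 KO, against 31.7% and 34.8% of windows of the same lengths anywhere in the same blocks, and 27.9% and 30.6% of such windows in all coding sequence. Longer Mbnl1 KO tags have more room for a motif, which the windows of the same lengths take into account. By class, the motif was in 49.6% of constitutive, 52.0% of skipped and 50.5% of beyond-end tags over both tables. Windows of the same lengths in the same blocks held it in 33.7%, 36.1% and 34.4%. Of the tags in 3'UTRs, 59.0% and 58.9% held the motif, and of the intron tags 41.3% and 50.7%. No windows were taken in 3'UTRs or introns, so these shares are not set against their own sequence. Tags of the mitochondrial coding sequence held it rarely, 14.4% (8.89 to 21.6) and 22.7% (19.6 to 26.1), against 15.5% and 18.4% of windows of the same genes.

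Motif starts were more frequent over the tags than in their flanks. The 10 nt on each side of the midpoint cover most of a tag, whose median length was 22 nt in WT and 26 nt in Mbnl1 KO. A motif started at a given position within 10 nt of the midpoint in a mean of 3.35% of WT and 3.21% of Mbnl1 KO tags, against 1.74% and 1.77% at 41 to 60 nt upstream and 1.75% and 1.72% as far downstream. In WT the motif share was 44.0% (42 to 45.9) of tags with 1 read and 52.8% (50.1 to 55.4) of tags with at least 10, and in Mbnl1 KO 48.7% (47.6 to 49.9) and 52.7% (51.5 to 53.8).

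**Figure D5:**
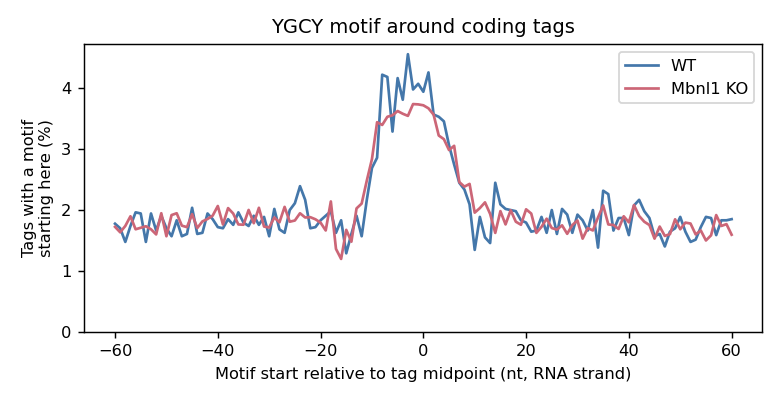
Share of WT and Mbnl1 KO coding tags (%) in which a YGCY motif starts at each distance from the tag midpoint, in nt along the RNA strand. Both lines rise from about 1.75% in the flanks to a plateau within 10 nt of the midpoint, where the means are 3.35% and 3.21%.

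The 4 forms of the motif were not equally frequent. Of all sequences of 4 nt, counted in the tags and divided by their frequency in the same blocks, GCTT was highest at 2.14, followed by TGCT at 2.01, TTGC at 1.84, CTGC at 1.67 and CGCT at 1.65. TGCC (1.31) ranked 19 and CGCC (1.24) ranked 32. The sequence with the lowest value was TATA at 0.414. Both tables gave TGCT a value near 2, 2.08 in WT and 1.99 in Mbnl1 KO.

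Because coding tags lie in reading frames, the preference also showed in codons. Relative to the same exons, the alanine codon GCT was the most frequent in tags at 1.60, followed by TGC (cysteine) at 1.5, CTT, TTG and CTG (leucine) at 1.40, 1.40 and 1.33. The isoleucine codon ATA (0.551) and the threonine codon ACA (0.556) were the rarest. Of the motifs in tags, 43.1% began at the last base of a codon, 35.8% at the second and 21.1% at the first, close to the 44.8%, 33.5% and 21.6% given by the motifs of the same exons.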

How the data were processed

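Mbnl2 HITS-CLIP tags of quadriceps muscle from 3 WT and 3 Mbnl1 KO mice were used, as 1 merged table per genotype. Reads were filtered, aligned to mm9 with BWA (version not given in the sources used here), collapsed and merged by the authors, and the number deposited with each tag is its count of reads, not normalized. The study's text speaks of discarding short sequences, while the tables hold tags of 18 to 33 nt. Read totals were 5176203 and 50329234, and the tag number limits precision.

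Tags on assembled chromosomes were assigned by midpoint and strand to the GENCODE vM1 annotation of mm9, with CDS placed above UTRs and introns. Sequences were read from the mm9 genome. Python 3.11.15, numpy 2.4.6, pandas 2.3.3, scipy 1.17.1, pysam 0.24.0, matplotlib 3.10.9 and samtools 1.23.1 were used. Shares have exact Clopper-Pearson intervals, ratios were derived from them, and ratios of ratios have exact conditional intervals, all at 95%. Code for ratios was tested on simulated counts.

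Members, gene lists and tests were chosen with earlier results of these data known. Named exons are the 10 constitutive (outside chromosome M) and 10 skipped blocks with the most pooled tags, skipped blocks with at least 3 tags in the study's targets, the 3 highest and 3 lowest ratios among blocks with at least 10 tags, and up to 4 genes per list. Details of Naca, Ttn, collagens, marker ratios and 60-nt windows, and the shares of tagged blocks, were added after the values were seen. Alternatives comprised scaling, the single-base limit, 5′ ends, collapsing, read minimum, thinning, annotation and motif flanks. RNA levels were not analysed here, and 1 gene of the lists is not reported here.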

Additional observations from a re-analysis of the deposited data

How the results depend on the processing

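No paired analysis was possible because each genotype is 1 table with its 3 mice merged. For the same reason no mouse could be left out in turn. Of 162 values recomputed under alternatives, 116 stayed within the counting interval of the reported value (for counts of blocks, within 1.5 times), 45 moved beyond it and 1 reversed. All coding, constitutive and skipped ratios stayed above 1, and the skipped over constitutive ratio of ratios stayed between 0.956 and 1.05. The causes of the moves were not tested.

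The coding, constitutive and skipped ratios were 3.76, 3.78 and 3.91 without scaling, 2.68, 2.69 and 2.76 with single-base tags kept, 2.61, 2.59 and 2.68 with Mbnl1 KO reads thinned, 1.60, 1.62 and 1.68 with a shared 5′ end counted as 1, and 1.42, 1.42 and 1.37 with at least 2 reads. The coding and constitutive ratios were 1.73 and 1.74 with a single-base limit of 60%, 1.93 and 1.94 with 80%, and 1.61 and 1.62 with identical positions counted as 1. Of the blocks tested, 235 of 270 were at least 2-fold higher without scaling, 182 with single-base tags kept, 53 of 168 with identical positions and 41 of 147 with shared 5′ ends counted as 1, 39 of 135 with at least 2 reads, 499 of 973 with a minimum of 5 tags and 37 of 82 with 20.

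The skipped share (WT, Mbnl1 KO) was 7.80% and 8.25% with complete transcripts, 40.8% and 40.4% with 2 classes, 12.7% and 13.2% in genes with at least 2 coding transcripts, and 7.68% and 7.85% for whole exons. With settings chosen after the data were seen, it was 8.56% in Mbnl1 KO without Naca and 8.0% without blocks over 1000 nt, and the skipped over constitutive density ratio was 0.983 and 1.02. The motif share was 52.0% and 51.8% with at least 2 reads and 60.6% and 62.2% with 10 bases on each side. In Mbnl1 KO it was 52.0% after thinning and 51.6% without chromosome M.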

Other observations

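Among beyond-end exons, a class named after the values were seen, the block with the most tags was exon 309 of 347 of Ttn (chr2:76574121-76591226, minus strand, 17106 nt), with 41 WT and 152 Mbnl1 KO tags and a ratio of 1.78 (1.25 to 2.58). Ttn exon 287 had 3 and 33, a ratio of 5.29 (1.66 to 26.9). Exons 36 and 37 of Col6a3, a chain of the collagen VI that surrounds muscle fibres, had 10 and 49, and 12 and 47 tags. Their ratios were 2.36 (1.18 to 5.22) and 1.88 (0.983 to 3.90). Exon 10 of Ldb3, at chr14:35357159-35357603 on the minus strand, had 4 and 31, a ratio of 3.73 (1.32 to 14.5). Fmod, the matrix proteoglycan fibromodulin, had 7 and 39, a ratio of 2.68 (1.18 to 7.10). In Prkar1a, a regulatory subunit of protein kinase A, the last coding exon had 13 and 33 tags, and in Amot exon 10 had 16 and 30. Exon 8 of Atp2a1 had 11 and 40, and Ttn exon 341 had 11 and 37. The intervals of the Prkar1a, Amot and Atp2a1 exons and of Ttn exon 341 included 1.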
